A study of Homo sapiens with 6 samples.

Results

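The 10 intestinal differentiation genes described here are VIL1, CA2, TFF1, TFF3, MUC2, CDX1, CDX2, FABP1, CEACAM5 and KLF4. Each was read from every probe set annotated with that 1 gene symbol, 17 probe sets in all, and the brightest probe set of a gene gave its main value. They are 10 of 18132 genes measured. DLD1 cells, which are an established line from a human colorectal adenocarcinoma, received lentivirus expressing a short hairpin RNA (shRNA) directed at CDKL1 in 1 group and a control shRNA in the other. The groups held 3 samples each, and each sample was hybridised to 1 Affymetrix array. No time after infection, shRNA sequence or selection step is given in the labels, and nothing there says whether cells were cloned. Values are log2 expression as normalised between arrays by the authors with RMA, so 1 unit is a doubling of signal.

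The lining of the gut is renewed from stem cells whose daughters become absorptive cells, with a brush border of microvilli, or secretory cells such as mucus-making goblet cells. The homeobox factors CDX1 and CDX2 set intestinal identity and switch on genes of both fates, and KLF4 is a zinc finger factor of cells that stop dividing and of goblet cells. Villin (VIL1) bundles actin in microvilli, carbonic anhydrase 2 (CA2) handles bicarbonate, and FABP1 binds fatty acids in absorptive cells. MUC2 is the main gel-forming mucin of the colon, TFF3 and TFF1 are secreted trefoil peptides that travel with mucus, and CEACAM5 is the carcinoembryonic antigen.

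CDKL1, the targeted gene, had log2 levels of 4.25, 4.20 and 4.08 in CDKL1 shRNA arrays and 4.51, 4.42 and 4.17 in control arrays. These levels lay within the range of 2.98 to 4.92 spanned by the means of the array's background controls of 10 to 16 G or C bases. The change was -0.19 and missed the threshold (limma, adjusted p = 0.219). The knockdown could therefore not be checked from these arrays, and the groups are named as labelled. Arrays of 1 group correlated at r = 0.99759 or more and arrays of different groups at r = 0.99612 or less, with probe sets as the points, although these are not independent of each other. A sign of RNA quality, the log2 signal of the ACTB control at its 3' end minus that at its 5' end, was 1.60 ± 0.115 in CDKL1 shRNA arrays and 1.40 ± 0.0136 in control arrays (SD, n = 3 each). Its 3 values did not overlap between the groups, and its part in any result below was not tested beyond a fit with it as a covariate. The same difference for the GAPDH control was 0.275 ± 0.0262 in CDKL1 shRNA arrays and 0.203 ± 0.018 in control arrays (SD, n = 3 each). These values did not overlap either, and no fit used them. The epithelial markers EPCAM, KRT8, KRT18 and KRT19 were bright, with EPCAM at 13.53 and 13.52 in the groups, and CDX2 and CDH17 were bright among the colon markers. LGALS4 (5.38 and 5.36) and CEACAM5 (4.12 and 4.07) were dim although both are colon markers. Above the background range stood 3 of 6 measured fibroblast markers, 3 of 5 leukocyte markers and 3 of 4 endothelial markers. The leukocyte marker PTPRC lay within it at 3.49 and 3.62, as did LUM and LYZ, while CD3E ran from 5.48 to 5.81 in CDKL1 shRNA arrays and from 5.72 to 5.78 in control arrays, and VWF, the highest of these markers, averaged 6.64 and 6.75. Their part in the results was not tested. Of these 15 markers of fibroblasts, leukocytes and endothelium, 0 passed (limma), and an unadjusted p under 0.05 was found for 0. Over all genes 16.8% passed, and 5407 of 18132 had an unadjusted p under 0.05 (limma).

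Of the 10 genes, TFF3 rose, VIL1 and CA2 fell, and 7 did not pass the test at an adjusted p of 0.05. Among all 18132 genes 8.97% rose and 7.79% fell, 16.8% in all (limma, Benjamini-Hochberg over all genes). With 10 genes, 1 rise and 2 falls are too few to set the list apart from this background. The median log2 change of the 10 was -0.03, against -0.01 over all genes, and the median absolute change was 0.07, against 0.09. All 3 called changes were under 1.5-fold. So were most calls in the whole series, where 218 of 3040 called genes changed by at least that much. The arrays of the groups did not overlap for the same 3 genes, against 35.7% of all genes. By their means 8 of the 10 lay above the background range given above, as did 82.2% of all genes, while FABP1 and CEACAM5 did not. VIL1, MUC2 and CDX1 were dimmer than the endothelial marker VWF, which averaged 6.64 and 6.75 in the groups. A level above this range therefore does not by itself show that a gene was expressed. In bulk RNA, fewer cells of a type and less RNA per cell cannot be told apart. With the ACTB difference as a covariate 0 of the 10 passed (limma), 2 had an unadjusted p under 0.05, and 1.21% of all genes passed.

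**Figure D1:**
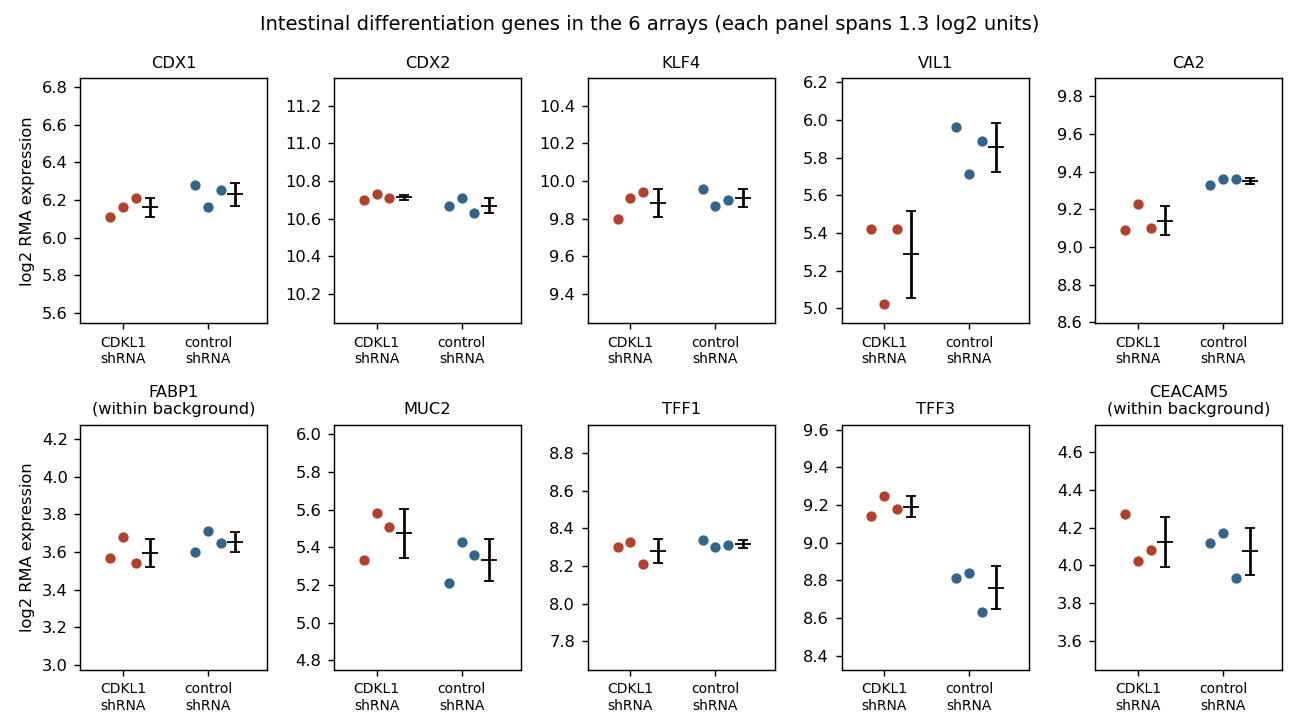
Log2 RMA expression (vertical axis, each panel spanning 1.3 log2 units around its own centre) of the 10 genes in the 3 CDKL1 shRNA arrays (red, left) and the 3 control shRNA arrays (blue, right), with mean ± SD as black bars. The groups separate for VIL1, CA2 and TFF3 and overlap for the other 7.

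Neither of the caudal factors CDX1 and CDX2 passed the test. CDX2 had log2 levels of 10.70, 10.73 and 10.71 in CDKL1 shRNA arrays and 10.67, 10.71 and 10.63 in control arrays. The groups overlapped, and its pooled SD within groups of 0.03 was the smallest of the 10, against a median of 0.076 over all genes. The change of 0.05 had a 95% interval from -0.05 to 0.15, or 0.963-fold to 1.11-fold (limma, adjusted p = 0.533). CDX1 had levels of 6.11, 6.16 and 6.21 in CDKL1 shRNA arrays and 6.28, 6.16 and 6.25 in control arrays. These sets overlapped too, and the change of -0.07 spanned 0.874-fold to 1.03-fold (limma, adjusted p = 0.403). The CDX1 levels lay between the means of background controls with 18 and 19 G or C bases, 5.95 and 6.33. The G or C count of the CDX1 probes was not analysed here. The second CDX1 probe set lay within background at a mean of 4.33 and gave -0.07 as well.

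Both CDX factors bind AT-rich DNA with a TTTAT core, and MUC2 in human cells and Fabp1 in rodents are known targets of CDX2. Upstream sequence was held for 5 of the 10 genes, and the 250 bases before the start are shown for FABP1 and MUC2, because the probe sets of both lay within or near the background range in arrays where CDX2 was bright. They are RefSeq sequences on GRCh38.p14, written 5′ to 3′ in the direction of the gene, with matches to TTTAT or its reverse complement ATAAA in capitals. FABP1 is on the minus strand at chr2:88128063-88128312 and MUC2 on the plus strand at chr11:1074624-1074873.
FABP1: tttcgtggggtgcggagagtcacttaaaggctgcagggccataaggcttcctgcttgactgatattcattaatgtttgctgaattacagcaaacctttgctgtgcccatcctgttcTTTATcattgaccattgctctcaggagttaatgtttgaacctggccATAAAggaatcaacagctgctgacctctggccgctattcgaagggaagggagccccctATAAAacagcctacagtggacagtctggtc
MUC2: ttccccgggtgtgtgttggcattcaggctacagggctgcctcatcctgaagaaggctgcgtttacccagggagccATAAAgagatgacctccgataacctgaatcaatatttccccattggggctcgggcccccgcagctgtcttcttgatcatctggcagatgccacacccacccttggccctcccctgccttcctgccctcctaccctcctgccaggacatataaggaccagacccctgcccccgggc
FABP1 held 3 matches, whose first bases were at -134, -88 and -30 from the start, and the last of them is part of a TATAAA stretch, the letters of a TATA box. MUC2 held 1 match, at -175. Each gene had 1 match to the longer TTTATG or CATAAA, a letter choice made after the sequences had been seen. Of 35116 upstream windows of the same length, 32.7% held TTTAT or ATAAA and 9.64% held the longer form. The CDX2 window held 2 of the shorter matches, CEACAM5 held 1 and KLF4 held 0. Such a match is a stretch of letters and was not measured as a binding site.

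KLF4 was bright and did not pass the test. Its brightest probe set read 9.80, 9.91 and 9.94 in CDKL1 shRNA arrays and 9.96, 9.87 and 9.90 in control arrays. The groups overlapped, and the change of -0.03 had an interval of 0.896-fold to 1.07-fold (limma, adjusted p = 0.76). The other probe set, at a mean of 8.12, gave 0.03, so the sign depended on the probe set.

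Among the absorptive cell genes, VIL1 had the largest change of the 10. Its levels were 5.42, 5.02 and 5.42 in CDKL1 shRNA arrays and 5.96, 5.71 and 5.89 in control arrays. Every CDKL1 shRNA array lay below every control array, and replicate 2 of the CDKL1 shRNA group was the lowest. That same array had the highest ACTB 3' minus 5' difference, 1.73. VIL1 fell by 0.57 on the log2 scale (SE 0.12), with an interval from -0.85 to -0.29, a 1.48-fold fall (limma, adjusted p = 0.019). Permuting the 6 values exactly, two-sided, gave p = 0.1, the smallest that 3 arrays against 3 allow.

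The 3 VIL1 probe sets were all lower but not equally so. The probe set at a mean of 4.88, within the background range, fell by 0.31 (SE 0.06), and its groups did not overlap (limma over all probe sets, adjusted p = 0.0186). The third, at 5.09, gave -0.22 with overlapping groups (adjusted p = 0.435, limma). In that fit 12.6% of all probe sets were called, and the mean of the 3 VIL1 probe sets gave -0.37 (limma, adjusted p = 0.0226). VIL1 was dim in both groups: background controls with 17 and 18 G or C bases had means of 5.42 and 5.95, and the G or C count of its own probes was not analysed here. These 2 background controls had mean changes of -0.11 and -0.13 themselves. The VIL1 call was lost without control replicate 1 (-0.51, adjusted p = 0.0639) or control replicate 3 (-0.55, adjusted p = 0.0601), and with the ACTB covariate the value was -0.16 (adjusted p = 0.507, limma in each case). Without CDKL1 shRNA replicate 2 VIL1 fell by 0.43 and passed (limma, adjusted p = 0.0218).

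CA2 was bright and slightly lower. Its single probe set read 9.09, 9.23 and 9.10 in CDKL1 shRNA arrays and 9.33, 9.36 and 9.36 in control arrays. All 3 CDKL1 shRNA values lay below the control values, which differed among themselves by no more than 0.04. CA2 fell by 0.21 (SE 0.05), with an interval of 0.797-fold to 0.944-fold, or a fall of 1.15-fold (limma, adjusted p = 0.036, exact permutation p = 0.1). This call was close to the threshold: without 1 array it held in 1 of 6 fits, the one without CDKL1 shRNA replicate 2 (-0.25, limma adjusted p = 0.0257). Without any other array the change was -0.22 to -0.18, with adjusted p of 0.0651 to 0.12 (limma). It was -0.34 with the ACTB covariate (limma, adjusted p = 0.106). Background controls with 24 G or C bases, the nearest to CA2 in level, averaged 8.784 in CDKL1 shRNA arrays and 8.994 in control arrays. Those with 20 G or C bases had a mean change of -0.19. The part of such shifts in the CA2 change was not tested.

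FABP1 was not above background in either group. Its levels were 3.57, 3.68 and 3.54 in CDKL1 shRNA arrays and 3.60, 3.71 and 3.65 in control arrays, and its second probe set had a mean of 3.47. A change of FABP1 was therefore not detectable at this signal. The 2 probe sets gave -0.06 and 0.07.

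**Figure D2:**
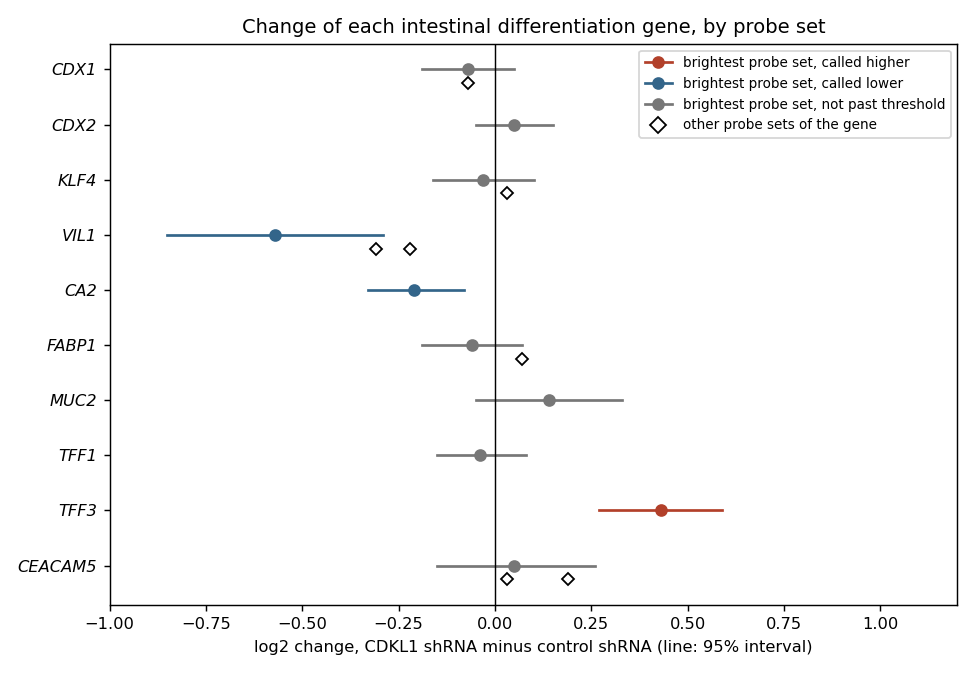
Log2 change (CDKL1 shRNA minus control shRNA, horizontal axis) of each gene, with dots and lines for the brightest probe set and its 95% interval and open diamonds for the gene's other probe sets. TFF3 at 0.43 lies right of zero, VIL1 at -0.57 and CA2 at -0.21 lie left of it, and the other 7 intervals include zero.

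Of the secreted products, TFF3 rose. It had levels of 9.14, 9.25 and 9.18 in CDKL1 shRNA arrays and 8.81, 8.84 and 8.63 in control arrays. Every CDKL1 shRNA array exceeded every control array, and the lowest control value was that of replicate 3. TFF3 rose by 0.43 (SE 0.07), with an interval of 1.21-fold to 1.51-fold and a fold of 1.35 (limma, adjusted p = 0.00597, exact permutation p = 0.1). The call held in 6 of 6 fits with 1 array left out, at 0.37 to 0.48. With the ACTB covariate the change was 0.32 and did not pass (limma, adjusted p = 0.218).

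TFF1 did not pass the test. Its levels were 8.30, 8.33 and 8.21 in CDKL1 shRNA arrays and 8.34, 8.30 and 8.31 in control arrays. The groups overlapped, and the change of -0.04 had an interval of 0.902-fold to 1.06-fold (limma, adjusted p = 0.683). Within each array the TFF3 minus TFF1 log2 difference was 0.84, 0.92 and 0.97 in CDKL1 shRNA arrays and 0.47, 0.54 and 0.32 in control arrays. The change of TFF3 thus exceeded that of TFF1 by 0.47, with an exact permutation p of 0.1, the smallest possible.

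TFF2, the third trefoil gene, lies between TFF3 and TFF1 on chromosome 21, by the RefSeq gene order. It had levels of 6.62, 6.53 and 6.76 in CDKL1 shRNA arrays and 6.12, 6.11 and 6.21 in control arrays, again without overlap. The mean of background controls with 19 G or C bases, 6.33, lay between these 2 sets of levels. TFF2 rose by 0.49 (SE 0.07, limma, adjusted p = 0.00374), and its change exceeded that of TFF1 by 0.53 (exact permutation p = 0.1). Beyond TFF1 the serine protease gene TMPRSS3 had a change of 0.02, UBASH3A of -0.15 and RSPH1 of 0.05. Beyond TFF3 the sterol transporter gene ABCG1 was at 0.00 and UMODL1 at 0.07, and these 5 did not pass the limma test (adjusted p = 0.107 to 0.993). The next gene past UMODL1, ZBTB21, rose by 0.28 (SE 0.04, limma, adjusted p = 0.0063).

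MUC2 was dim and did not pass. It had levels of 5.33, 5.58 and 5.51 in CDKL1 shRNA arrays and 5.21, 5.43 and 5.36 in control arrays. The groups overlapped, and the change of 0.14 had an interval of 0.965-fold to 1.26-fold (limma, adjusted p = 0.307). These levels spanned the mean of the background controls with 17 G or C bases, 5.42, so a change of MUC2 may not be detectable at this signal. With the ACTB covariate its sign turned, to -0.03 (limma, adjusted p = 0.918). CEACAM5 was within background in both groups through all 3 of its probe sets, whose means were 4.10, 3.34 and 4.04. The brightest read 4.27, 4.02 and 4.08 in CDKL1 shRNA arrays and 4.12, 4.17 and 3.93 in control arrays, so a change was not detectable at this signal. These probe sets can bind transcripts of other CEACAM genes.

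Further genes of the intestinal programme were counted in 6 lists with 130 genes, of which 119 were measured. In all 7 rose and 13 fell, and 99 did not pass. The share called was 16.8%, as among all genes, with 5.88% higher and 10.9% lower. The median change was -0.03, against -0.01 over all genes. In fits without 1 array 6 rose and 6 to 9 fell, and with the ACTB covariate 1 rose (CA13) and 1 fell (KLF9). Several changes that lost their calls in that fit were as large or larger, with wider errors: TFF2 was at 0.65 (SE 0.11), PPARG at -0.44 (SE 0.08), PLS1 at -0.43 (SE 0.085), KLK1 at -0.53 (SE 0.13) and SYTL2 at 0.43 (SE 0.10). Others lost their calls and shrank, also with wider errors. Among them were ELF3 at 0.30 (SE 0.093), KLF5 at -0.27 (SE 0.11), SLC9A3 at -0.14 (SE 0.11), TRPM5 at -0.15 (SE 0.096) and HES1 at -0.11 (SE 0.081). The part of RNA quality in either set was not tested. The next paragraphs give these lists on the same arrays, whose ACTB difference was on average larger by 0.198 with CDKL1 shRNA.

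**Figure D3:**
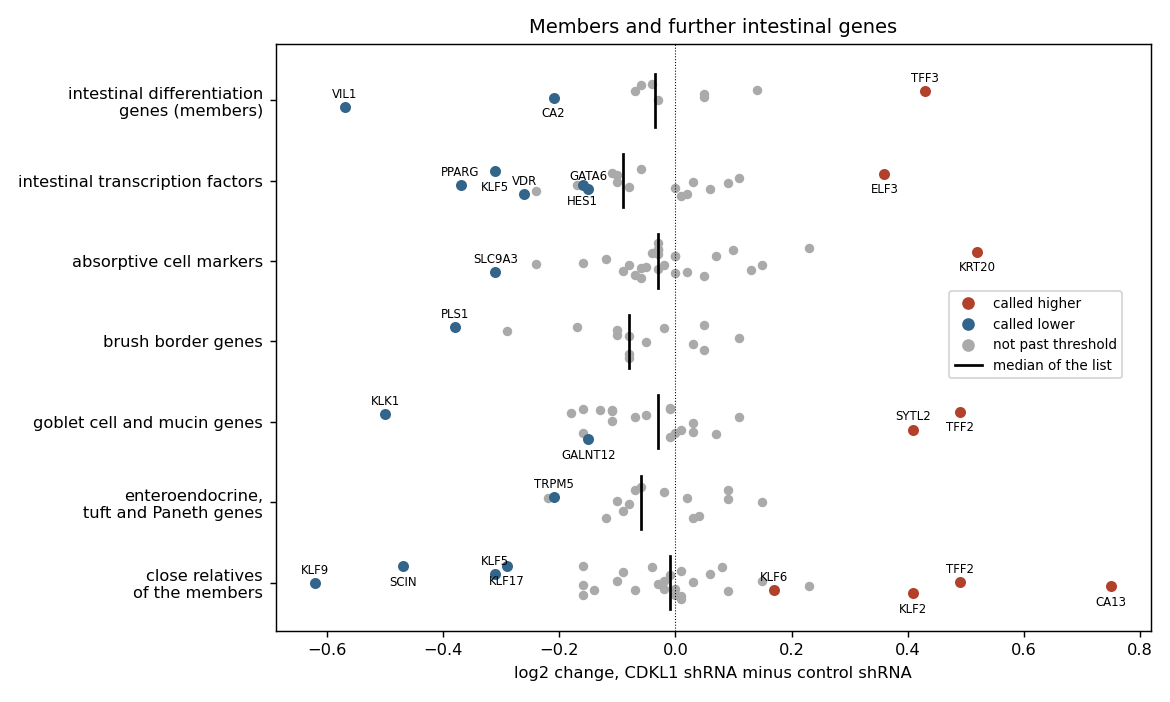
Log2 change (CDKL1 shRNA minus control shRNA, horizontal axis) of each measured gene in the 10 members and the 6 further lists (rows), with called genes coloured and named and the list median as a black line. Most genes of every list sit near zero, and CA13 at 0.75 and KLF9 at -0.62 are the outermost.

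Among 20 measured intestinal transcription factor genes 1 rose, 5 fell and 14 did not pass, with a median of -0.09. That is 5% higher and 25% lower, against 8.97% and 7.79% of all genes. So few genes do not set the list apart, and no list was tested as a set. ELF3, an epithelial ETS factor, had levels of 10.20, 10.30 and 10.31 in CDKL1 shRNA arrays and 9.96, 9.89 and 9.88 in control arrays, and rose by 0.36 (SE 0.05, limma, adjusted p = 0.00365). The lipid-sensing nuclear receptor gene PPARG ran from 7.97 to 8.07 in CDKL1 shRNA arrays and from 8.35 to 8.40 in control arrays, and fell by 0.37 in the brighter of 2 probe sets that were both called. The vitamin D receptor gene VDR fell by 0.26 (SE 0.04), and KLF5, a factor of dividing crypt cells, fell by 0.31 (SE 0.06). These 4 had adjusted p of 0.0026 to 0.0143 (limma), but KLF5 lost its call without CDKL1 shRNA replicate 3 (adjusted p = 0.0532), control replicate 2 (adjusted p = 0.0545) or control replicate 3 (adjusted p = 0.0505). The remaining falls, chosen for naming after their values were seen, were those of GATA6 (-0.15) and the Notch target HES1 (-0.16), and both lost their calls without any 1 array (limma, adjusted p = 0.0532 to 0.135). Both falls were smaller than the mean changes of background controls with 19 and 20 G or C bases, -0.18 and -0.19. The secretory factor ATOH1 did not pass, at 4.10 in CDKL1 shRNA arrays and 3.99 in control arrays, both within background.

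Of 28 absorptive cell markers 1 rose, 1 fell and 26 did not pass, with a median of -0.03. Calls made up 7.14% of this list, against 16.8% of all genes. KRT20, the keratin of surface colonocytes, read 10.78, 10.84 and 10.84 in CDKL1 shRNA arrays and 10.35, 10.25 and 10.31 in control arrays, well apart. KRT20 rose by 0.52 (SE 0.05, 1.44-fold, limma, adjusted p = 0.000746), while with the ACTB covariate its change was 0.49 and did not pass (adjusted p = 0.0651). The sodium-proton exchanger gene SLC9A3 fell by 0.31 (SE 0.07, limma, adjusted p = 0.0236) at levels of 5.36 and 5.67, a call held in 1 of 6 fits with 1 array left out, and was at -0.14 with the ACTB covariate (adjusted p = 0.516). Of these 28 genes 8 were not above background. CDH17 did not pass in its brightest probe set, at 0.15, although 3 of its 4 probe sets were called higher (limma over all probe sets). In the brush border list 7.14% of genes were called, against 16.8% of all genes. There 0 of 14 genes rose and 1 fell, with a median of -0.08. That was PLS1, the actin bundler fimbrin of microvilli, at 10.73, 10.82 and 10.80 in CDKL1 shRNA arrays and 11.13, 11.19 and 11.17 in control arrays. PLS1 fell by 0.38 (SE 0.05, limma, adjusted p = 0.0021), while its other probe set gave -0.09 and the mean of both -0.24. EZR did not pass in its brightest probe set, at -0.29 with overlapping groups. Its 5 probe sets ran from -0.29 to 0.27, and 2 were called (limma over all probe sets).

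Of 22 measured goblet cell and mucin genes 2 rose, 2 fell and 18 did not pass, with a median of -0.03. The share called was 18.2%, near the 16.8% of all genes. Besides TFF2, the vesicle-tethering gene SYTL2 rose by 0.41 (SE 0.05, limma, adjusted p = 0.00251), in both of its probe sets. It read 10.37, 10.33 and 10.36 in CDKL1 shRNA arrays and 9.99, 9.99 and 9.86 in control arrays. The tissue kallikrein gene KLK1 fell by 0.50 (SE 0.07), with levels of 8.39, 8.43 and 8.48 in CDKL1 shRNA arrays and 8.90, 9.07 and 8.84 in control arrays (limma, adjusted p = 0.00332). GALNT12, which starts O-linked sugar chains on mucins, fell by 0.15, a call lost without any 1 array (limma, adjusted p = 0.0777 to 0.118). That fall was smaller than the mean change of background controls with 20 G or C bases, -0.19. AGR2, a secretory disulfide isomerase gene that was bright at 12.69 and 12.80, did not pass. Its 4 probe sets were all lower, from -0.45 to -0.03, and 1 was called (limma over all probe sets). In the list of enteroendocrine, tuft and Paneth genes 6.67% were called, against 16.8% of all genes. There 0 of 15 rose and 1 fell, the tuft cell channel gene TRPM5 (-0.21, limma, adjusted p = 0.0321), at a dim level of 4.93 and 5.15. That call held in 2 of 6 fits with 1 array left out.

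Close relatives of the 10 genes moved in both directions: of 31 measured, 4 rose, 4 fell and 23 did not pass, with a median of -0.01. The share called was 25.8%, against 16.8% of all genes. Among the 31 were 6 chosen KLF genes, of which 2 rose and 3 fell. The list was chosen with earlier results of these data known, so its share does not set it apart. CA13, a cytosolic carbonic anhydrase gene like CA2, had levels of 8.38, 8.36 and 8.39 in CDKL1 shRNA arrays and 7.71, 7.65 and 7.51 in control arrays. CA13 rose by 0.75 (SE 0.06, 1.68-fold, limma, adjusted p = 0.000425), the opposite sign to CA2, and its change exceeded that of CA2 by 0.96 (exact permutation p = 0.1). The groups had already separated in opposite directions for these 2 genes, so this permutation p was fixed in advance and adds no evidence. The other 2 CA13 probe sets were not called, and the mean of all 3 gave 0.36. SCIN, an actin-severing relative of villin chosen for naming after its value was seen, fell by 0.47 (SE 0.11, limma, adjusted p = 0.0234) at levels of 4.92 and 5.39. Its call held in 2 of 6 fits with 1 array left out, and both of its probe sets fell, with a mean of -0.83.

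Of the 6 measured KLF genes listed as relatives of KLF4, which are not the whole family, 2 rose, 3 fell and KLF3 did not pass (0.09, limma, adjusted p = 0.399), against 16.8% called among all genes. So few chosen genes do not set the family apart. KLF9 had levels of 8.64, 8.69 and 8.68 in CDKL1 shRNA arrays and 9.35, 9.27 and 9.25 in control arrays, and fell by 0.62 (SE 0.05, limma, adjusted p = 0.000387). Its 4 probe sets ran from -0.62 to -0.07, and 2 were called; their mean gave -0.34. Besides KLF5, KLF17 fell by 0.29, at means of 4.73 in CDKL1 shRNA arrays and 5.01 in control arrays. By its mean over all arrays KLF17 was not above background. KLF2 rose by 0.41 (SE 0.06, limma, adjusted p = 0.00375), or by 0.22 as the mean of its 2 probe sets, while KLF6 rose by 0.17, a call lost without any 1 array (limma, adjusted p = 0.0592 to 0.143). Of 6 measured CEACAM and 6 measured FABP relatives 0 passed (limma), while CEACAM3 and FABP2, chosen here after their values were seen, had an unadjusted p under 0.05. Over all genes 16.8% passed, and 5407 of 18132 had an unadjusted p under 0.05 (limma). Of 9 CEACAM1 probe sets 1 was called, while the brightest gave -0.04. FABP2 lay within background at 3.44 and 3.22.

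**Figure D4:**
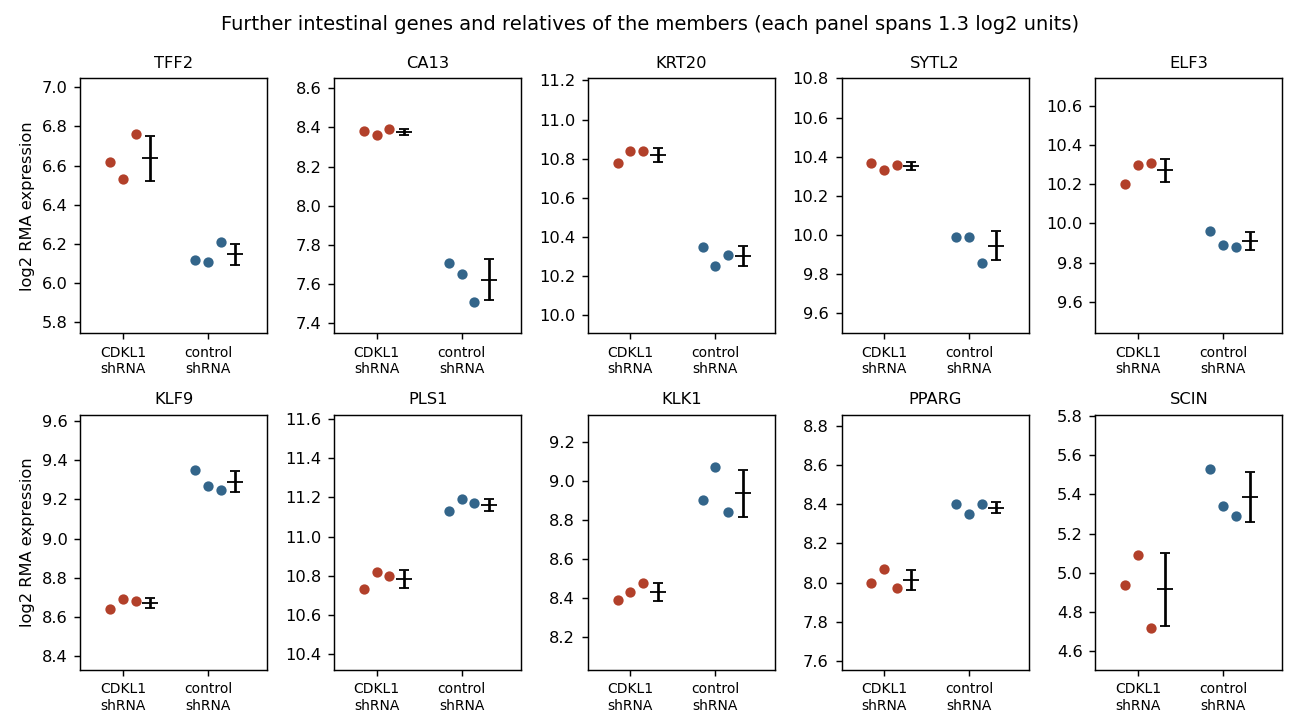
Log2 RMA expression (vertical axis, each panel spanning 1.3 log2 units around its own centre) of 10 further intestinal genes and relatives in the 3 CDKL1 shRNA arrays (red, left) and the 3 control shRNA arrays (blue, right), with mean ± SD as black bars. The groups separate in every panel, with TFF2, CA13, KRT20, SYTL2 and ELF3 higher and KLF9, PLS1, KLK1, PPARG and SCIN lower in CDKL1 shRNA arrays. All 10 had already been called in these same arrays, so the separation follows from their choice. The groups did not overlap for 29 of the 119 further intestinal genes and for 35.7% of all genes.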

How the data were processed

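Gene expression of 6 DLD1 samples, 3 with CDKL1 shRNA and 3 with control shRNA, was read from Affymetrix arrays. The deposited table holds log2 values, 49395 probe sets in each of 6 columns, which the authors made with RMA per the submitters' processing notes; its version and settings are not stated there. RMA shrinks changes of dim probe sets and assumes that most genes do not change. Of the probe sets, 44988 had 1 gene symbol, 1832 had several and 2473 others had none, by the platform annotation; 102 control probe sets were left out, and 0 symbols needed updating against RefSeq (GRCh38.p14). A FABP1 probe set shared with PRDM10 was not used. All 6 columns were used.

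Each of 18132 genes was read from its brightest probe set over the 6 arrays, without a filter on dim genes. A model with group as its term was fitted with limma 3.58.1 in R 4.3.3 (lmFit, eBayes, two-sided), with Benjamini-Hochberg adjustment over all genes and a threshold of 0.05; probe sets were also fitted together, 49293 of them. Single values had exact two-sided permutation tests (scipy 1.17.1), whose smallest p is 0.1. Signal above background meant a mean over 4.92, the highest mean of background controls with 10 to 16 G or C bases; 82.2% of genes passed it. No label says whether samples came from separate cultures, so a p-value sets the difference against a spread that may be only technical. The number of arrays limits the precision.

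The members and lists were chosen with earlier results of these data known. Named genes were the members, up to 4 called genes with the smallest adjusted p per further list, and called TFF, CEACAM, FABP and KLF relatives. The fit was tested on simulated data: with the 18132 genes' own means and spreads, 50% of genes changed 1.25-fold, 82% changed 1.5-fold, 98% changed 2-fold and 100% changed 3-fold were recovered. In it 50 genes were changed at each fold, and 9 unchanged genes were called. Far more genes, 3040, were called in the real arrays, so the recovery there may differ. Alternatives were a replicate block, the ACTB covariate, each array left out, further quantile normalisation, median subtraction, averaged probe sets, brighter genes only, a trended robust prior and all probe sets fitted together. The same alternatives for named genes outside the 10 were chosen after seeing the data. Figures were drawn with matplotlib 3.10.9.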

Additional observations from a re-analysis of the deposited data

How the results depend on the processing

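The count of 1 higher member, TFF3, held in every alternative run except the ACTB 3' minus 5' covariate, where 0 members were higher and 0 lower. The count of 2 lower members was 1 among genes brighter than the median gene, where VIL1 was not tested and 44.0% of genes were called, 1 with all probe sets fitted together and 1 with the replicate block. With 1 array left out, 1 member was higher in each fit and 0 to 2 were lower. All genes called numbered 1633 to 2399 in those fits, against 3040. They numbered 4201 with the trended robust prior, 3991 of 9066 among the brighter genes and 219 with the ACTB covariate, whose values did not overlap between the groups; the cause was not tested. The further intestinal genes gave 6 higher and 6 to 9 lower with 1 array left out, and 1 higher and 1 lower with the ACTB covariate; the cause was not tested. Replicate numbers are not stated to pair the samples. Deviations of same-numbered samples correlated at -0.0645, -0.115 and 0.0549, and 2 of 6 samples correlated best with their own number. Correlations over all probe sets cannot exclude pairing for single genes. With the replicate block the SE was smaller for VIL1 (0.061 against 0.12) and larger for KLF4 (0.063 against 0.054). With the replicate block 1803 genes were called and 8 further intestinal genes were lower, and CA2 did not pass (limma, adjusted p = 0.0759, range over its alternatives 0.00437 to 0.12). Against background controls of any G or C count, whose highest mean was 10.74, 0 members instead of 8 stood above background. Signal over background limits FABP1 and CEACAM5 under both background limits, and VIL1 and MUC2 stood little above it. CDX1 lay below the mean of background controls with 19 G or C bases, 6.33.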
